A study of Mus musculus with 23 samples.

Results

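Whole lymph nodes from mice homozygous for the Stat5b Y665F allele (homo) were compared with whole lymph nodes from wild-type (WT) mice. The comparison used 2 single-cell expression libraries of each genotype. These 4 libraries were chosen by their titles, Y665F_homo and WT, out of 7 lymph node expression libraries, 16 expression libraries and 23 samples in the series. The study placed the Y665F or the Y665H change in the mouse's own Stat5b gene and profiled lymph node, spleen and bone marrow cells. Both groups were 2-month-old mice labelled C57BL/6 (zygotes for the edit were C57BL/6N per the methods), male per the methods, and no other allele or treatment is labelled in either. The knock-in allele is carried by every cell of the mouse, so no cell type in the node is a WT reference within a homozygote. The labels do not say that the 2 libraries of a genotype came from separate mice, and a legend of the study, in a figure titled for the spleen, describes single-cell data of lymph nodes as 1 combined sample of several mice in each group. Each library here may therefore be a pool of mice, though 2 libraries per genotype were analysed. For this reason the p-values measure the spread between these libraries, which may be technical. Values from 3 libraries of heterozygous nodes (het) are given beside the comparison where they add to it, and those nodes share the WT libraries as their control.

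STAT5B is a transcription factor that JAK kinases phosphorylate at cytokine receptors. In lymphocytes it acts downstream of the cytokines that use the common gamma chain, which keep naive T cells alive, expand memory CD8 T cells and maintain regulatory T cells. A lymph node holds B cells in follicles and T cells around them, and germinal centres form in follicles where B cells meet follicular helper T cells.

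The edited codon lies at chr11:100787291-100787293 (GRCm38, minus strand), in exon 16 of transcript Stat5b-201 and inside the coding sequence. The stretch from codon 653 to codon 677 (chr11:100787255-100787329) is shown so that the alleles can be read against each other, on the coding strand, 5′ to 3′. Capitals mark the codon of the replaced tyrosine in the reference, the 2 replaced bases in the repair oligo, and the PAM at the end of the guide, which targets the other strand. The 133-base oligo, as listed by the study, differed from the reference transcript at no other base, although the methods also describe a silent C-to-G change that removes the PAM. Whether the allele of these mice carries that silent change is not known here. In the protein, the codon change from TAC to TTT replaces tyrosine with phenylalanine among 786 residues.
reference: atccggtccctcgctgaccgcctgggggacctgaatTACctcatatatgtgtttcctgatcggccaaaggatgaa
Y665F repair oligo: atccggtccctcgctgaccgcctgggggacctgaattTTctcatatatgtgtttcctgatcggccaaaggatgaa
Y665F guide: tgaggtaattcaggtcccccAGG

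Each library is a count of UMIs, the molecular tags that mark single captured RNA molecules, per gene and cell barcode. For the whole node the counts of all barcodes were summed, and levels are given as CPM, the gene's count scaled to the same total in every library. The 4 libraries held 5078 to 9220 barcodes and 2733767 to 12129652 UMIs, with a median of 395 to 1163.5 UMIs per barcode and 1.87% to 1.94% mitochondrial UMIs. Homo replicate 1 was the shallowest: 71.4% of its barcodes reached 300 UMIs, against all barcodes in the other 3 libraries. Libraries of 1 genotype differed by more than counting noise, with a chi-square per degree of freedom of 13.6 between the WT libraries and 7.04 between the homo libraries.

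Stat5b was measured at 81.5 and 95.3 CPM in the WT nodes and at 80.5 and 78.4 CPM in the homo nodes. Its level did not pass the test (log2 difference -0.08, SE 0.11, adjusted p = 0.759), and the het nodes held 67.1 to 71.9 CPM. The counts do not read the edited base, so they do not check the genotype labels. Of the Stat5b transcript sequence, 16.2% is shared with another gene at a length of 31 bases, so a part of its reads can be ambiguous.

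The first question was how the node's cell mix differed. Barcodes were gated on marker UMIs: a B gate and a T gate on 9 B cell and 9 T cell genes, with at least 2 UMIs and at least 80% of them on 1 side, and within the T gate a CD8 gate (Cd8a or Cd8b1, no Cd4) and a CD4 gate (Cd4, neither CD8 gene). The B gate held 46.1% and 28.3% of barcodes in the WT nodes and 18.4% and 16.7% in the homo nodes. Both homo nodes lay below both WT nodes on this measure.

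Of the barcodes in the B and T gates together, B cells made up 49.2% and 30.1% in WT and 26.9% and 18.0% in homo. The means were 39.7% ± 13.5 (SD, n = 2) and 22.4% ± 6.32 (SD, n = 2), a difference of -17.2 percentage points. With 2 libraries against 2, the smallest p that an exact two-sided permutation test can give is 0.333, and that was the value here. The het nodes held 22.3%, 25.3% and 32.9%, so the highest het value lay above the lower WT value. With a stricter gate the groups overlapped: the B share was 51.1% and 30.4% in the WT nodes against 31.7% and 19.1% in the homo nodes, a difference of -15.3 points (exact two-sided permutation p = 0.667). With the main gate, the difference was -7.70 points without WT replicate 1 and -26.8 without WT replicate 2.

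T cells were also counted without marker UMIs, though still out of all barcodes of the expression library. The count took barcodes with a productive T cell receptor beta chain (TRB) contig in the receptor library of the same node. These made up 49.8% and 64.9% of barcodes in WT and 74.5% and 77.9% in homo, a difference of 18.9 points (exact two-sided permutation p = 0.333). The het nodes lay between, at 72.3%, 66.7% and 71.0%. The B gate and TRB contigs hardly overlapped, since 1.17% to 3.03% of B gate barcodes in the 4 libraries had a TRB contig, against 92.4% to 98.4% of CD8 and CD4 gate barcodes.

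**Figure D1:**
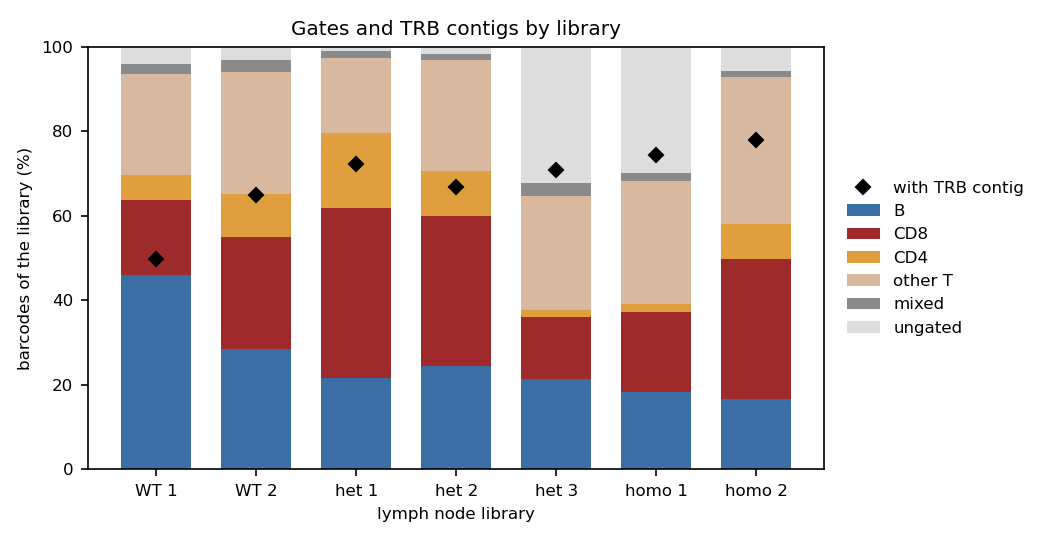
Stacked bars give the percentage of a library's barcodes in each gate, and diamonds give the percentage with a TRB contig, for 2 WT, 3 het and 2 homo libraries. The B gate takes 46.1% and 28.3% of the WT bars and 18.4% and 16.7% of the homo bars, and the pale ungated segment is largest in het 3 and homo 1, the shallowest libraries.

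Within the T gate, CD8 barcodes made up 74.4% and 72.3% of CD8 and CD4 barcodes in WT and 90.7% and 79.9% in homo. Both homo nodes were above both WT nodes (means 73.4% ± 1.49 and 85.3% ± 7.67, SD, n = 2 each, exact two-sided permutation p = 0.333). The 3 het nodes spanned 69.4% to 89.4%, the highest being het replicate 3, whose depth was like that of homo replicate 1. T gate barcodes with neither or both kinds of marker were left out of this share. They made up 50.3% and 43.9% of the T gate in WT and 58.5% and 45.6% in homo. Detection was unequal: the CD8 genes had 3414 and 7754 UMIs in the WT nodes, and Cd4 had 588 and 1379. The share is therefore not the CD8 fraction of all T cells. Over all barcodes, Cd8a and Cd8b1, which encode the CD8 chains, had log2 differences of 0.70 and 0.86, and Cd4 had -0.09, and none passed the fold threshold described below.

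The part of depth in these shares was not tested. The libraries of like depth, WT replicate 1 and homo replicate 2 (medians of 874 and 971 UMIs per barcode), held 49.2% and 18.0%, while the deepest, WT replicate 2, and the shallowest, homo replicate 1, held 30.1% and 26.9%. The CD8 share was highest in homo replicate 1 and het replicate 3, the shallowest of all 7 libraries. In homo replicate 1, 29.95% of barcodes could not be gated, against 5.63% in homo replicate 2 and 4.01% and 3.03% in WT, and 82.5% of those ungated barcodes had a TRB contig. Its CD4 gate held 124 barcodes and 57317 UMIs. When every barcode was thinned to 300 UMIs and shallower ones were left out, the B share was 64.3% and 45.5% for WT nodes, against 14.4% and 29.2% for homo nodes. In homo replicate 1 the B gate had a median of 260 UMIs per barcode, against 532.5 in the CD8 gate and 432.5 in the CD4 gate, so this minimum left out B barcodes of that library more often than T barcodes. The CD8 share was then 76.3% and 81.7% for WT nodes, against 92.0% and 84.1% for homo nodes.

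Across all genes, 95 of 11467 rose in the homo nodes (0.828%) and 103 fell (0.898%), 1.73% in all, at an adjusted p under 0.05 and a log2 fold change beyond 1 in edgeR's quasi-likelihood test. In all, 402 genes passed the adjusted p, with or without the fold, and the median log2 difference of all tested genes was -0.00288. Both homo libraries lay above both WT libraries for 16.9% of tested genes and below for 34.0%. These positions were read in CPM, without the further scaling between libraries (TMM) that the fitted log2 differences use. The larger share below is therefore not a count of fitted falls. The number of calls rested on single libraries: it was 53 without homo replicate 2, 98 without homo replicate 1, 114 without WT replicate 1 and 332 without WT replicate 2. In summed libraries, fewer cells of a type and less RNA per cell cannot be told apart.

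Genes of B cells fell in the whole node, and none was called within the B gate. Of 18 B cell identity genes outside the gate, 7 fell and none rose, where 0.898% of tested genes fell. The 7 were Cr2, the complement receptor CD21, Blnk, an adaptor of the B cell receptor, the transcription regulators Pax5, Spib and Pou2af1, the exchange factor Ralgps2 and the fatty acid desaturase Scd1. Their log2 fold changes ran from -1.499 for Cr2 to -1.06 for Pax5, and 16 of the 18 had both homo libraries below both WT libraries (34.0% of all tested genes).

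Pax5, the factor that fixes B cell identity, was at 79.1 and 54.7 CPM in WT and at 31.8 and 28.9 CPM in homo. Cr2 was at 101 and 61.3 CPM in WT and at 29.995 and 24.7 CPM in homo. WT replicate 1 was the higher WT node for both genes, as it was for the B share, and the groups did not overlap. The list's call rested on which libraries entered: 0 of 18 fell without homo replicate 2, 3 without WT replicate 1, 4 without homo replicate 1 and 15 without WT replicate 2.

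Inside the B gate, the same 18 genes had a median log2 difference of 0.14, against -0.96 in the whole node, and none was called. No gene of 9067 was called in the B gate by edgeR, where 738 had an unadjusted p under 0.05 and DESeq2 called 3. Leaving out a library gave 1 to 18 calls there (18 without WT replicate 1, 16 without homo replicate 1, 3 without WT replicate 2, 1 without homo replicate 2). MHC class II genes, which B cells use to present antigen, followed the same split. All 11 were lower in both homo nodes than in both WT nodes (34.0% of all tested genes), with a median of -0.89. Of these Ciita, their master regulator, alone was called (log2 fold change -1.15), where 0.898% of all tested genes fell. In the B gate their median was 0.21 and none was called.

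To set the mix apart from change within gates, each gene's difference was divided into a part given by the gates' shares of all UMIs at the gene's mean level per gate, and a part given by the gene's level within gates. The second part also holds any shift between cell subsets that share a gate. For the 103 genes called lower, the mix gave a median of 60.0% of the change (41.7% to 71.6% over the 4 pairs of a homo and a WT library), and over 50% for 61 of them. For the 95 called higher, it gave 21.3% (10.1% to 31.9%), and over 50% for 0 of them. The median over all tested genes was 19.0%. The fold threshold enters the contrast between rises and falls. The log2 ratio from the mix was at most 0.82 among genes called higher, under the threshold of 1, and reached -1.25 among those called lower.

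Among the called genes with the highest share of their fall given by the mix were Chst3, Pax5, Cd22 and Spib, where the mix gave between 101% and 103% of the change. Cd22 encodes an inhibitory receptor of B cells and is among the genes that defined the gate. It went from 134.7 and 88.5 CPM in WT to 57.1 and 42.1 CPM in homo. Chst3, a sulfotransferase, went from 53.2 and 33.6 CPM to 21.6 and 17.7 CPM. The log2 ratio that the mix alone would give was -1.21 for both Cd22 and Chst3, beside measured values of -1.11 and -1.07.

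At the other end, the mix went against the measured change or gave none of it for Tyrobp, Tmie, Sox4 and Maf. Tyrobp, the adaptor DAP12 of natural killer and myeloid receptors, fell from 69.9 and 41.6 CPM to 18.7 and 17.7 CPM. Tmie, a transmembrane protein known from hair cells, fell from 20.6 and 25.7 CPM to 8.05 and 5.96 CPM. Sox4 and Maf are transcription factors, and Sox4 fell from 24.3 and 30.2 CPM to 12.8 and 11.4 CPM. The immunoglobulin segment Ighv9-2 also stood at this end, but its call was made by 1 library: it was at 2.24 and 3.30 CPM in WT, 2.56 CPM in homo replicate 1 and 155 CPM in homo replicate 2.

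These shares counted ungated barcodes as a compartment, which held 26.1% of UMIs in homo replicate 1 against 2.40% to 3.84% in the other 3 libraries. With the B gate, TRB barcodes and the rest as compartments instead, the mix still went against the fall of Tmie, Sox4 and Maf, but it gave 32.8% of the fall of Tyrobp. The highest log2 ratio from the mix among genes called lower went from 2.11, that of Fscn1, to 0.33, and the genes called lower with under 20% of their change from the mix went from 25 to 15. The medians then were 62.3% for the genes called lower and 17.2% for those called higher. With these compartments the log2 ratio from the mix ran from -1.27 to 0.37 over all tested genes. A rise beyond the fold threshold could thus get only a small part of its change from the mix, whereas a fall could get all of it.

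**Figure D2:**
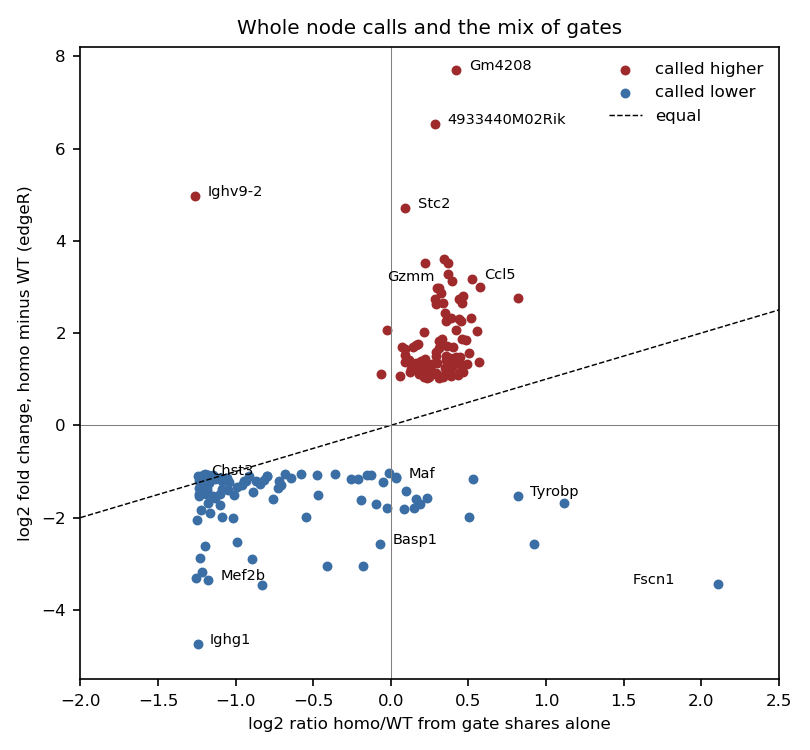
Each point is 1 of the 198 genes called in the whole node, with the log2 ratio of homo to WT that the gates' shares alone would give on the horizontal axis and the fitted log2 fold change on the vertical axis. The genes called lower form a cluster near the dashed line of equality at about the position of Chst3, while the genes called higher stand above it, with a median of 0.33 from the mix against 1.495 measured.

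Among the 15 genes with the largest rises in the whole node, both homo libraries exceeded both WT libraries by the rule that chose them. Ccl5, a chemokine of memory and effector T cells, was at 179 and 164 CPM in WT and at 1391 and 1549 CPM in homo (log2 fold change 3.18, SE 0.21, adjusted p = 9e-05). Gzmm, a granzyme, went from 4.93 and 4.37 CPM to 41.7 and 35.1 CPM (3.13, SE 0.25). Ifng, which encodes interferon gamma, went from 2.99 and 3.46 CPM to 18.7 and 20.2 CPM (2.66, SE 0.26). For each of these 3 genes, all 3 het nodes lay between the groups, for example at 791, 561 and 922 CPM for Ccl5. The genes were picked by a wide gap between these same WT and homo libraries. How many of all tested genes had het nodes between the groups, or above both WT nodes, was not counted. This holds for the het values of the genes below as well.

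Several of the other large rises are in genes with no usual place among lymphocyte markers. Stc2, a secreted stanniocalcin, was at 0.299 and 0.165 CPM in WT, from 2 UMIs in each library, and at 6.95 and 4.73 CPM in homo, from 19 and 27 UMIs. Drc1, a subunit of the dynein regulatory complex of cilia, went from 1.64 and 1.81 CPM to 21.2 and 12.4 CPM. Both groups were apart for each gene, and the het nodes were at 3.11 to 4.46 CPM for Stc2 and 11.8 to 13.4 CPM for Drc1. Dyrk4 (a kinase), Akr1c12 (an aldo-keto reductase), Nccrp1, Kcnj8 (a potassium channel subunit), Smpdl3b (a lipid phosphodiesterase), Dlg5 (a scaffold protein), Tshz3 (a zinc finger factor) and Impg1 (a retinal matrix proteoglycan) had log2 fold changes from 2.73 to 3.61 at no more than 7.32 CPM in any homo library.

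Cd163l1, a scavenger receptor known from gamma-delta T cells, went from 2.69 and 6.68 CPM to 41.3 and 33.8 CPM. In homo replicate 2, 83.4% of its UMIs fell in the CD8 gate. The share was lower in homo replicate 1, the shallower library, where 29.95% of barcodes were not gated. Gpr15, a receptor that directs T cells to the colon, went from 1.79 and 1.65 CPM to 13.2 and 8.07 CPM. Without homo replicate 2, 8 of the 15 genes were still called. Without homo replicate 1, WT replicate 1 or WT replicate 2, 11 were, and without het replicate 3 all 15. The calls lost without each of the 4 homo and WT libraries were those of Akr1c12, Nccrp1, Smpdl3b and Impg1. Of the Akr1c12 transcript sequence, 39.2% is shared with another gene, and 16.6% of that of Ifng, so both counts are uncertain to that extent, and Nccrp1 lies across Samd4b on the same strand.

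**Figure D3:**
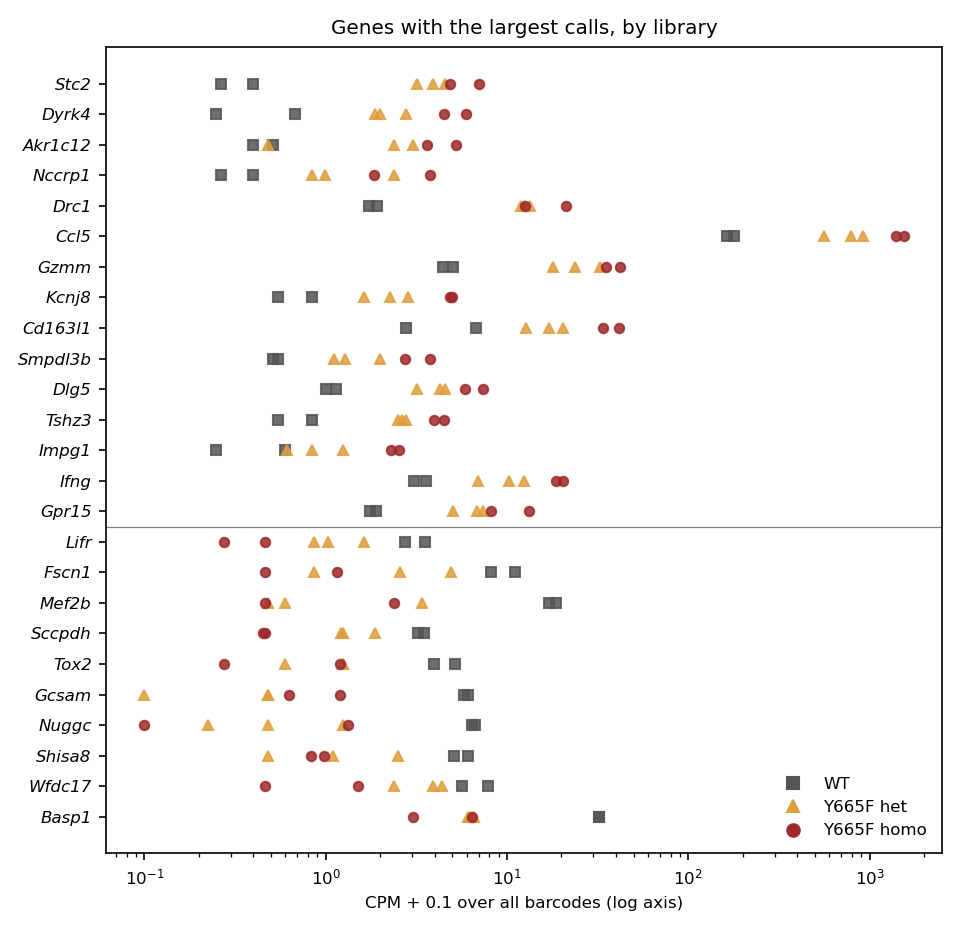
The level in CPM plus 0.1, on a log axis, of the 15 genes with the largest rises and the 10 with the largest falls is plotted for each library, with squares for WT, triangles for het and circles for homo. The homo circles lie to the right of the WT squares in the upper block and to the left in the lower block, Ccl5 being at 1391 and 1549 CPM against 179 and 164.

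Memory and effector T cell genes were the list with the most rises in the whole node. Of its 24 genes, 9 rose and none fell, where 0.828% of tested genes rose: Ccl5, Gzmm, Ifng, the chemokine receptor Cxcr3, the transcription factors Tbx21 and Eomes, Ly6c2, Nkg7 and the cytokine receptor chain Il2rb. The median log2 difference of the list was 1.02, against -0.00288 for all tested genes and 0.45 from the mix of gates alone, and 20 of 24 had both homo libraries above both WT libraries (16.9% of all tested genes). Leaving out any 1 of the 4 libraries left 8 to 11 of the 24 called.

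Cxcr3 was at 20.8 and 21.8 CPM in WT and at 80.5 and 67.5 CPM in homo, with 47.5 to 54.1 CPM in het. Tbx21 was at 12.4 and 8.16 CPM in WT and at 39.9 and 30.3 CPM in homo, with 21.5 to 30.5 CPM in het. All homo and het libraries lay above both WT libraries for both genes, and homo lay above het for Cxcr3, while the highest het value of Tbx21 was just above the lower homo value. Of 12 naive T cell genes, 1 rose, Dapl1, where 0.828% of all tested genes rose, and the list's median was 0.20 against -0.00288.

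Within the CD8 gate, 89 of 9583 genes rose (0.929%) and 34 fell (0.355%). The total of 123 (1.28%) was 43 without homo replicate 2, 54 without WT replicate 2 and 62 by DESeq2. Of 23 memory and effector genes tested there, 11 rose and none fell, with a median of 1.37 against -0.01 for all tested genes. That count was 7 without homo replicate 2, 8 without WT replicate 2, 13 without WT replicate 1 and 12 without homo replicate 1. Ccl5 was at 270 and 208 CPM in the WT gates and at 2076 and 2824 CPM in the homo gates (log2 fold change 3.41, SE 0.23). S100a6, a calcium-binding protein of memory cells, was at 23.9 and 30.4 CPM in WT and at 79.2 and 125 CPM in homo.

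Cd44, the adhesion receptor that marks memory cells, was at 26.5 and 23.9 CPM in the WT CD8 gates and at 60.5 and 47.0 CPM in the homo gates. Xcl1, a chemokine, also rose in the CD8 gate (1.42 on the log2 scale) while it did not pass the test in the whole node. The ratio of the list's summed level to that of the naive list in the CD8 gate was 0.628 and 0.512 in the WT nodes. It was 1.07, 0.908 and 1.17 in the het nodes and reached 1.41 and 1.504 in the homo nodes. The 3 genotypes did not overlap on this ratio. Behind it, the memory and effector sum was 2807 and 2467 CPM in WT and 6441 and 6671 CPM in homo. Ccl5 alone gave 270 and 208 CPM of it in WT and 2076 and 2824 CPM in homo. The naive sum was 4473 and 4816 CPM in WT and 4581 and 4435 CPM in homo, where the groups overlap. No naive gene was called in this gate, so the ratio shows no fall of naive genes.

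In the CD4 gate, where 0.167% of tested genes rose and 0.167% fell, 0 of 12 memory and effector genes were called by edgeR, with a median of -0.36, and that ratio was 0.144 and 0.127 for WT nodes, against 0.107 and 0.0931 for homo nodes. Ccl5 was at 86.7 and 12.7 CPM in the WT CD4 gates and at 87.2 and 17.4 CPM in the homo gates. The change of Ccl5 in the CD8 gate exceeded that in the CD4 gate by 3.99 on the log2 scale (SE 0.43, edgeR interaction test, which called 0.266% of tested genes, while that between the B and the CD4 gate called 0.0771%). No call of this interaction test was left without homo replicate 2, which leaves homo replicate 1 as the only homo CD4 gate, with 5 UMIs of Ccl5.

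**Figure D4:**
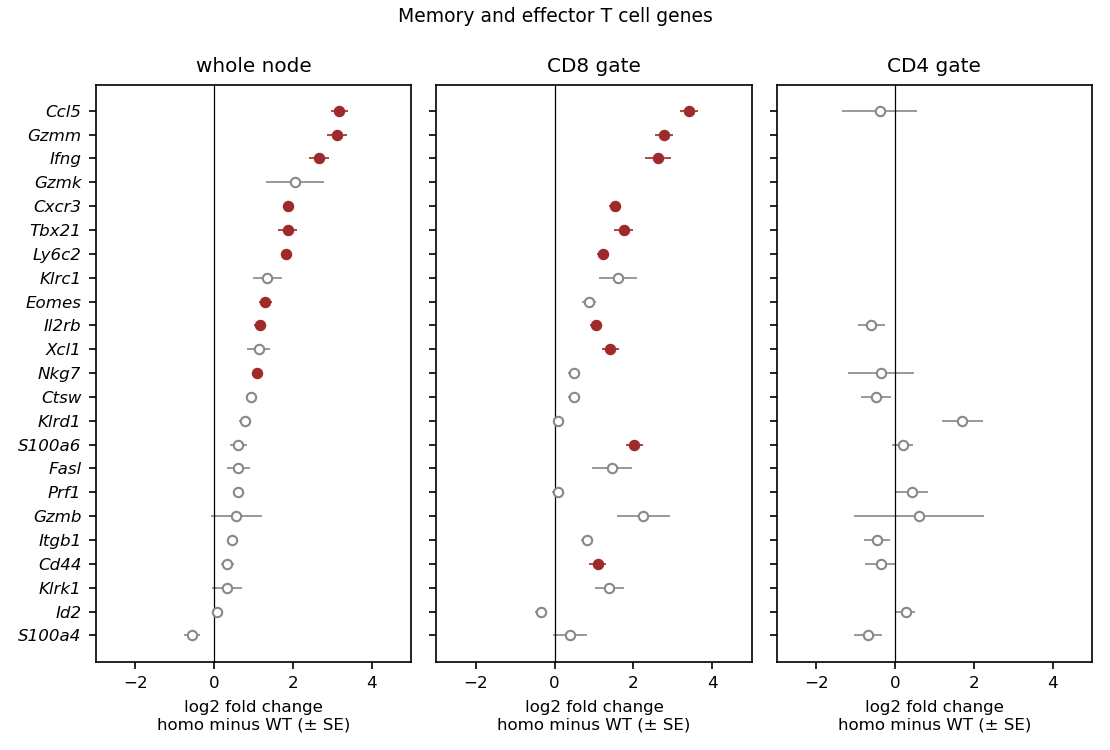
Log2 fold changes of homo minus WT with their standard errors are plotted for 23 of the 24 memory and effector T cell genes in the whole node, the CD8 gate and the CD4 gate, with filled points for genes that were called. The whole node shows 9 filled points and the CD8 gate 10 of its 11 called genes, all to the right of 0, and the CD4 gate shows none of 12.

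The largest rises in the CD8 gate besides those already described were in Osbpl3, an oxysterol-binding protein, and S1pr5, a sphingosine phosphate receptor of effector cells. Osbpl3 went from 2.59 and 0.781 CPM to 33.1 and 17.0 CPM (log2 fold change 4.04, SE 0.56). S1pr5 went from 1.29 and 0 CPM to 5.76 and 6.48 CPM (3.99, SE 0.88), so its WT level rested on 2 UMIs. Stc2, Cd163l1, Smpdl3b, Dyrk4 and Dlg5 rose in the CD8 gate too, by 3.01 to 3.71. Of the 8 rises named for this gate, 3 were called without homo replicate 2 or without WT replicate 2, when S1pr5, Stc2, Smpdl3b, Dyrk4 and Dlg5 were not, and 6 were called by DESeq2.

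Of the 34 genes that fell in the CD8 gate, the largest changes were in Xkrx, Tmie, Plekho1, Elovl6 and Trat1. Tmie went from 36.2 and 35.6 CPM to 7.20 and 5.27 CPM (log2 fold change -2.58, SE 0.28). Plekho1, a pleckstrin homology adaptor, went from 25.2 and 43.7 CPM to 10.1 and 6.48 CPM. Trat1, an adaptor of the T cell receptor, went from 23.9 and 27.1 CPM to 5.76 and 7.29 CPM. Without homo replicate 2, 1 of the 5 was still called, and by DESeq2 3 were.

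Homing receptors changed in both directions within the CD8 gate. That gate holds naive and memory cells together, and a change in their proportions was not tested apart from a change per cell. Of 21 on the list that were tested there, 5 rose, Gpr15, Ccr2, Cxcr3 and Cxcr5 among them, and Ccr9 and Itgae fell, where 0.929% of tested genes rose and 0.355% fell. Ccr9, which directs T cells to the small intestine, went from 78.9 and 73.4 CPM to 17.3 and 25.1 CPM. Itgae, the integrin chain CD103 that binds epithelium, went from 66.6 and 89.0 CPM to 30.2 and 27.1 CPM. In the whole node the same list gave 2 rises, Gpr15 and Cxcr3, and 1 fall, Ccr8, a chemokine receptor that went from 7.17 and 8.66 CPM to 2.56 and 1.93 CPM, where 0.828% and 0.898% of tested genes rose and fell.

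In the CD4 gate, which also holds regulatory T cells, 11 of 6588 genes rose (0.167%) and 11 fell (0.167%). Dapl1, a marker of naive T cells, went from 210 and 226 CPM to 558 and 809 CPM (log2 fold change 1.81, SE 0.17), on 32 UMIs in homo replicate 1. Ly6c1 went from 65.0 and 83.0 CPM to 227 and 271 CPM, though 57.1% of its transcript sequence is shared with another gene. Pdlim4, an actin-associated protein, went from 75.8 and 69.5 CPM to 209 and 191 CPM. Myo6, Pde2a, Coro2a, Rcn1 and Cd55 rose as well, but on 1 to 5 UMIs each in homo replicate 1, and 90.9% of the Pde2a sequence is shared with an overlapping gene model.

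Maf, a transcription factor of helper T cells, fell in the CD4 gate from 69.3 and 73.2 CPM to 17.4 and 19.5 CPM (log2 fold change -1.83, SE 0.42), on 1 UMI in homo replicate 1 and 9 in homo replicate 2. Icos, a costimulatory receptor, was at 108 and 151 CPM in the WT gates and at 105 and 43.4 CPM in the homo gates, so homo replicate 1 lay just below the lower WT gate. Spsb1, Rgs1 and Skil fell too, on 0 to 5 UMIs in homo replicate 1. The regulatory T cell list gave 0 calls of 9 genes tested in the CD4 gate by edgeR. Without homo replicate 2, 0 of the 8 rises and 0 of the 5 falls named here were called, 5 rises and 0 falls were called without WT replicate 2, and DESeq2 called 2 rises and no fall. Within this gate the number of calls ran from 6 without homo replicate 2 to 45 without WT replicate 1.

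The largest falls in the whole node were in genes of several kinds. Basp1, a membrane-associated protein of neurons and B cells, went from 32.3 and 32.0 CPM in WT to 2.93 and 6.31 CPM in homo (log2 fold change -2.56, SE 0.24). The het nodes were at 5.99 to 6.48 CPM, close to homo replicate 2. Of the 10 genes named for the largest falls, Basp1 alone was called when homo replicate 1 or homo replicate 2 was left out, 3 were called without WT replicate 1 and 6 without WT replicate 2. The mix of gates gave 3.54% of the change of Basp1.

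Mef2b, Gcsam and Nuggc are expressed in germinal centre B cells, and in the WT nodes 93.2% to 97.7% of their UMIs lay in the B gate. Mef2b, a transcription factor, was at 18.7 and 17.0 CPM in WT and at 0.366 and 2.28 CPM in homo, from 125 and 206 UMIs against 1 and 13. Gcsam, a regulator of B cell signalling and motility, was at 5.97 and 5.69 CPM in WT and at 1.10 and 0.526 CPM in homo. Nuggc, a nuclear GTPase, was at 6.57 and 6.35 CPM in WT and at 0 and 1.23 CPM in homo. For all 3 genes the mix gave 30.7% to 37.8% of the change, and none was called when homo replicate 1, homo replicate 2 or WT replicate 1 was left out. Gcsam and Nuggc were not called without WT replicate 2 either. Mef2b was not called by DESeq2, nor Nuggc in a fit of only the homo and WT libraries. None of the 3 was called with the replicate number as a block. Within the B gate, Mef2b was at 47.2 and 69.0 CPM in WT and at 0 and 16.5 CPM in homo and did not pass the test (adjusted p = 0.432). Mef2b lies across Borcs8 on the same strand.

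Ighg1, the constant region of a class-switched antibody, was at 24.5 and 44.1 CPM in WT and at 2.19 and 0.701 CPM in homo, from 164 and 535 UMIs against 6 and 4. It was the 1 called gene of 11 immunoglobulin constant genes tested, where 0.898% of all tested genes fell (log2 fold change -4.74, SE 0.65). Ighm and Ighd, also on that list, were at log2 differences of 0.02 and -0.87 and were not called. Other members of the list differed as far without being called: Igha was at 69.1 and 67.3 CPM in WT and at 2.93 and 1.58 CPM in homo (-4.96), with 379.5 CPM in het replicate 3. Ighg2c stood at 2.09 and 0.577 CPM in WT and at 0.366 and 72.8 CPM in homo (5.22), a level made by homo replicate 2. The het nodes held 0, 0 and 1.53 CPM of Ighg1.

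Some further genes were singled out after their values had been seen, because they are known from germinal centre B cells or follicular helper T cells, and no list of such genes was tested. Bcl6, a repressor that both cell types need, went from 37.9 and 35.2 CPM to 14.998 and 15.96 CPM (log2 fold change -1.14, SE 0.15). S1pr2, a receptor that confines cells to the germinal centre, went from 8.51 and 11.3 CPM to 3.66 and 4.56 CPM. Pdcd1, the inhibitory receptor PD-1, went from 8.66 and 12.0 CPM to 4.02 and 2.81 CPM, and most of its WT UMIs lay in T gates. Maf went from 24.0 and 29.9 CPM to 12.4 and 10.9 CPM, and Tox2, which the rule had named, from 5.08 and 3.87 CPM to 1.10 and 0.175 CPM. Icos was not called in the whole node, and Cxcr5, the follicle-homing receptor, was at 58.5 and 37.3 CPM in WT and at 25.6 and 26.3 CPM in homo (adjusted p = 0.0733, not called). Both homo nodes lay below both WT nodes for 34.0% of all tested genes. All 3 het nodes lay below both WT nodes for Bcl6, S1pr2, Pdcd1, Maf and Tox2. These are the same WT libraries by which the genes were picked, and the share of all tested genes with this het pattern was not counted.

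**Figure D5:**
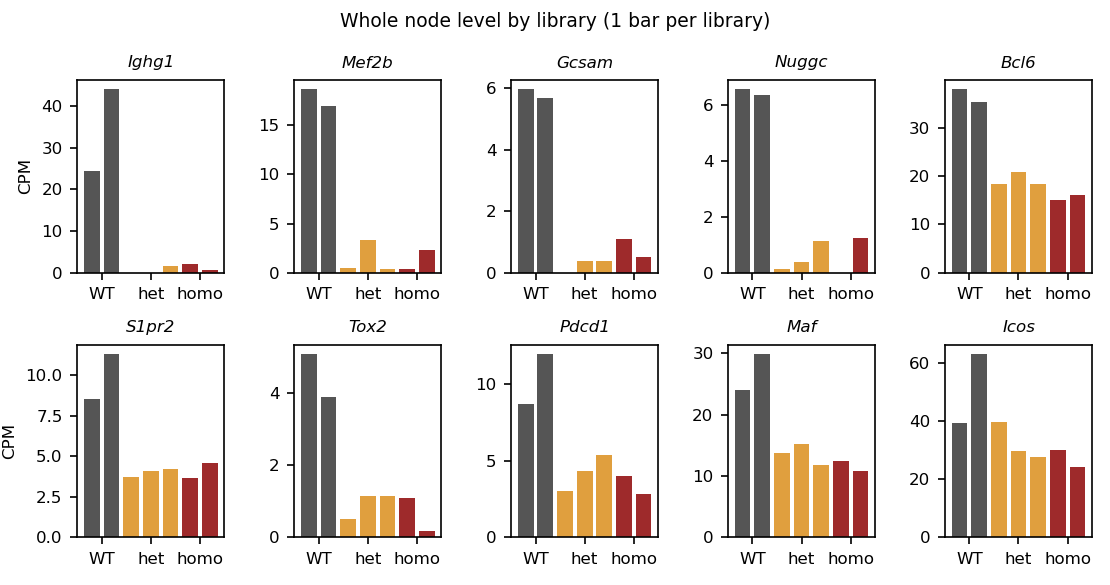
Bars give the whole node level in CPM of 10 genes in each library, with 2 WT, 3 het and 2 homo bars per panel and each axis starting at 0. The homo bars are below both WT bars in every panel, as for 34.0% of all tested genes, for example at 2.19 and 0.701 CPM against 24.5 and 44.1 CPM for Ighg1.

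Genes of the cytokine pathway upstream of STAT5B gave few calls. Of 13 receptor chains tested, Il2rb, the beta chain shared by receptors for interleukins of memory CD8 and natural killer cells, alone rose (0.828% of all tested genes rose), from 77.0 and 88.8 CPM to 189 and 164 CPM (log2 fold change 1.16, SE 0.15). Of 11 kinases and STATs and of 13 inhibitors, none was called (1.73% of all tested genes), at medians of -0.08 and 0.00265 against -0.00288 for all tested genes, and of 10 ligands only 1 was detected well enough to be tested, and it was not called. Among the inhibitors, Socs2, a feedback regulator that STAT5 induces, was at 7.47 and 5.36 CPM in WT and at 17.2 and 11.2 CPM in homo and missed the threshold (adjusted p = 0.0604 in edgeR), while it rose among TRB barcodes (log2 fold change 1.20, adjusted p = 0.0370 in edgeR). Cish, another such regulator, was at 13.0 and 23.0 CPM in WT and at 30.4 and 21.0 CPM in homo, where the groups overlap.

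Of 24 target genes tested, Il2rb, Il18r1 and Bcl2 rose and Irf8 fell, where 1.73% of all tested genes were called, and the list's median was 0.46 against -0.00288 for all tested genes. The list's summed level overlapped between the groups in the whole node and in both T gates. In the CD8 gate it was 3283 and 3648 CPM in WT and 4187 and 3516 CPM in homo. Bcl2, the survival factor, went from 134 and 162 CPM to 365 and 250 CPM. Il18r1, a receptor for interleukin-18, went from 16.4 and 19.95 CPM to 49.4 and 46.1 CPM. Irf8, a transcription factor of B and myeloid cells, went from 174 and 115 CPM to 67.3 and 52.6 CPM, of which the mix gave 75.6%, and within the B gate it was at 406 and 433 CPM in WT and 378 and 348 CPM in homo. Pim1, a kinase, passed the adjusted p but not the fold in the whole node and rose in both T gates, by 1.02 in the CD8 gate and 1.20 in the CD4 gate. DESeq2 did not call Pim1 in the CD4 gate.

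The promoters of the called genes were searched for TTCNNNGAA, the palindromic site that STAT proteins bind, in windows of 300 bases around RefSeq start sites (GRCm38.p6). It stood in 11 of 75 genes called higher (14.7%), in 5 of 69 called lower (7.25%) and in 727 of 8741 tested genes with a promoter in the table (8.32%). Stretches from 2 genes that rose and 1 that fell are shown, on the gene's strand, with the matches in capitals, to show what such a match looks like in the members described above. The matches begin 86 bases before the start site of Gzmm, 249 before that of Ifng, and 171 and 153 before that of Irf8.
Gzmm, chr10:79688904-79688972, plus strand: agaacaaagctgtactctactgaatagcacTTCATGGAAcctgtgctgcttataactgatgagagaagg
Ifng, chr10:118440796-118440835, plus strand: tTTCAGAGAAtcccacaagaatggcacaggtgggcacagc
Irf8, chr8:120736157-120736243, plus strand: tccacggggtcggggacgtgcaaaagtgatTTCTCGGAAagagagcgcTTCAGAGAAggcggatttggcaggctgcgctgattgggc

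Other programmes gave few calls or none. None of 19 interferon-induced genes (median 0.52), 18 cell cycle genes (median -0.13), 17 immediate early and heat shock genes (median -0.19) or 11 regulatory T cell genes (median -0.25) was called in the whole node by edgeR, where 1.73% of all tested genes were, and 4, 0, 2 and 0 of them passed the adjusted p alone. Foxp3, the factor of regulatory T cells, was at 32.6 and 37.8 CPM in WT and at 39.9 and 39.1 CPM in homo. In the CD8 gate, 1 of 18 cell cycle genes tested, Ube2c, rose (0.929% of tested genes rose there), from 0 and 10.9 CPM to 30.2 and 29.2 CPM.

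Markers of less frequent cells moved in both directions, and their part in the results above was not tested. The summed level of 9 dendritic cell genes went from 40.6 and 30.3 CPM in the WT nodes to 15.4 and 6.49 CPM in the homo nodes, and Fscn1, an actin-bundling protein of mature dendritic cells, fell from 8.06 and 11.05 CPM to 0.366 and 1.05 CPM. Of its WT UMIs, 77.8% and 89.6% lay in ungated barcodes. For the dendritic cell list as a whole, the B gate held 144 of 272 and 154 of 368 UMIs in WT. It held 15 of 42 and 10 of 37 in homo, so the sum is not a measure of dendritic cells alone. The summed level of 8 natural killer genes was 171 and 102 CPM in the WT nodes, against 74.3 and 48.4 CPM in the homo nodes, with 1 of the 8 called, Tyrobp, where 0.898% of all tested genes fell. Of this list too, a part lay in the B gate: 304 of 1143 and 256 of 1239 UMIs in WT, and 26 of 203 and 55 of 276 in homo. Gamma-delta T cell genes gave 2 rises of 7 tested (0.828% of all tested genes rose), Cd163l1 and Tcrg-C1, while Trdc, the constant region that defines this lineage, was at 8.51 and 8.49 CPM in WT and at 5.12 and 7.19 CPM in homo. The summed neutrophil level was 23.1 and 200 CPM in the WT nodes, against 92.5 and 0 CPM in the homo nodes, and that of plasma cells 319 and 273 CPM against 125 and 309 CPM, so both sums overlap between the groups. None of 2 monocyte and macrophage genes and 1 stromal gene was called, and no gene of mast cells or red cells was detected well enough to be tested. Of 6 CD4 T identity genes, 1 rose in the whole node, where 0.828% of tested genes did: Tnfsf8, a ligand of activated T cells. The median of that list was -0.08.

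Restricting the sums to barcodes with a TRB contig, leaving out those in the B gate, gave 99 rises (0.933%) and 72 falls (0.678%) among 10613 genes. This set uses no T gate, but it does use the B gate. The memory and effector list had 9 rises of 24 with a median of 1.05. The 9 genes of the B gate were present at a summed 268 and 256 CPM in the TRB barcodes of WT and at 127 and 105 CPM in those of homo, beside 4949 and 2940 CPM and 2138 and 1788 CPM in the whole nodes. UMIs of B cell genes were thus present in TRB barcodes of every library, at a higher level in WT. The TRB barcodes include barcodes with mixed markers. In the CD8 gate, which leaves those out, the sum was 33.6 and 28.4 CPM in WT and 14.4 and 40.1 CPM in homo, so the groups overlap there. The part of these UMIs in the falls counted among TRB barcodes was not tested.

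Between homo and het nodes, 0 of 11467 genes were called by edgeR, where 540 had an unadjusted p under 0.05 and DESeq2 called 2. Without homo replicate 1, 13 were called, and 0 without homo replicate 2 or any 1 of the 3 het libraries.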

How the data were processed

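Lymph nodes were mechanically dissociated, filtered and loaded on a droplet platform. For single-cell sequencing of spleens, the study's text describes isolating cells that carry CD45, a white blood cell marker. It does not say whether lymph node cells were selected in this way, so the cell mix here may reflect such a step. The submitters' processing notes name Cell Ranger 5.0, Seurat 4.0 and build mm10, and the headers of the lymph node matrices name Cell Ranger 5.0.0. The labels give a 3′ kit and the methods a 5′ kit with a T cell receptor kit, so which transcript end was read is not settled here. The deposited values are raw UMI counts per gene and barcode from the authors' filtered matrices, over 32285 genes, not normalized, 1 matrix per library, with receptor contigs per barcode.

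Counts were summed per library over all barcodes and over gates of marker UMIs (at least 2 UMIs, at least 80% on 1 side). No doublet caller was run; barcodes with mixed markers were left out of the gates and kept in the whole-node sums. Sums of all 7 lymph node libraries were fitted together in edgeR 4.0.16 (R 4.3.3, limma 3.58.1) with TMM scaling, filterByExpr, the quasi-likelihood test and Benjamini-Hochberg adjustment over all genes tested, and a gene was called in the contrast homo minus WT where its adjusted p was below 0.05 and its log2 fold change beyond 1 in size. Genes that define a gate were left out of tests in that gate. Differences between gates were tested as an interaction with the library as a block. DESeq2 1.42.0, other scalings, filters, stricter gates, a barcode filter (200 genes or more, mitochondrial UMIs of 10% or less) and leaving out each library of the groups compared, and het replicate 3, in turn were alternatives. Shares of barcodes were compared by exact two-sided permutation tests. Counts were also simulated with 200 genes changed up or down by the same fold, well beyond the calling threshold. Smaller changes were not simulated. For the interaction, the CD4 counts were drawn with a set spread, not that of the CD4 gate. The share of changed genes called was 87.5% for the whole node, 85.0% for the B gate, 91.5% for the CD8 gate, 83.0% for the CD4 gate and 53.0% for the CD8 minus CD4 interaction. Of the calls in the same order, 6.42%, 5.03%, 1.08%, 2.92% and 8.62% were of unchanged genes.

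The named genes were the 15 largest rises and 10 largest falls called in the whole node, and 8 and 5 per gate, with both homo libraries beyond both WT libraries and predicted genes, immunoglobulin and receptor segments left out. Also named were the 5 highest and 5 lowest shares given by the mix among called genes with at least 20 CPM in 1 group, 5 genes in each direction of each interaction, and list members, of which a few are not reported here. The members and lists were chosen with earlier results of these data known, so no list is independent support. Coordinates and transcripts are from GENCODE (GRCm38), which matched 99.6% of genes, and promoters from RefSeq. The labels give no batch, so genotype and any batch cannot be told apart.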

Additional observations from a re-analysis of the deposited data

Results flagged for a closer look

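Genes were singled out for a closer look where the homo effect differed between gates in a test of the difference itself (edgeR interaction test, adjusted p under 0.05, log2 difference over 1). Between the CD8 and the CD4 gate there were 24 such genes. The effect in the CD8 gate exceeded that in the CD4 gate for Cxcr5 by 5.12 on the log2 scale, for Ccl5 by 3.99, for 1300002E11Rik by 3.87, for 1700025G04Rik by 2.51 and for Tnfrsf9 by 2.496. It was smaller in the CD8 gate for H2-Aa (-4.06), Trat1 (-1.99), Coro2a (-1.97) and Pde2a (-1.76). H2-Aa is on the B cell identity list, and the CD4 gates held 3 and 7 UMIs of it in WT and 5 and 2 in homo.

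For Trat1, the CD8 gates held 23.9 and 27.1 CPM in WT and 5.76 and 7.29 CPM in homo, while the CD4 gates held 102 and 96.4 CPM in WT and 105 and 108 CPM in homo. For Tnfrsf9, a costimulatory receptor, the CD8 gates held 10.3 and 8.85 CPM in WT and 14.4 and 12.2 CPM in homo, and the CD4 gates 47.7 and 47.1 CPM in WT and 0 and 13.0 CPM in homo. For Cxcr5, the CD8 gates held 4.52 and 3.64 CPM in WT and 7.20 and 13.4 CPM in homo, and the CD4 gates 19.5 and 21.7 CPM in WT and 0 and 2.17 CPM in homo, from 0 and 1 UMIs. The CD4 gate of homo replicate 1 held 0 to 6 UMIs of each of these 9 genes. Without homo replicate 2, 0 genes were called by this edgeR test, where 528 had an unadjusted p under 0.05, and without WT replicate 2, 6 were, of which 5 are among the 24. The noncoding 1300002E11Rik lies across Map3k13 on the same strand.

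Between the B and the CD4 gate there were 7 such genes. The effect was larger in the B gate for Cd200 (3.21), Ly6c2 (3.16), Vsir (2.12), Trp53inp1 (1.72) and Egr1 (1.13), and smaller for Pde2a (-2.02). This test called 3 genes without homo replicate 1, all among the 7, and 1 gene each without homo replicate 2 and without WT replicate 2, which was not among them. Without WT replicate 1 it called 10, including 6 of the 7. The CD4 gate of homo replicate 1 held 0 to 8 UMIs of each of these 6 genes.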

How the results depend on the processing

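Calls of genes depended on single libraries and on the filter on low counts. Leaving out each of the 4 libraries in turn gave 53 to 332 calls in the whole node, against 198, and 1 to 18 in the B gate, against 0. It gave 43 to 132 in the CD8 gate, against 123 (133 without het replicate 3), 6 to 45 in the CD4 gate, against 22, and 71 to 145 among TRB barcodes, against 171. Only homo replicate 2 and WT replicate 2 lowered the CD8 gate count by more than 1.5 times (43 and 54), and without WT replicate 2 or homo replicate 2 there were 71 among TRB barcodes, against 103 without homo replicate 1. The CD8 minus CD4 test gave 0 to 21 calls without 1 library, against 24 (0 without homo replicate 2, where edgeR gave 528 at an unadjusted p under 0.05, and 6 without WT replicate 2), and the B minus CD4 test 1 to 10, against 7. Homo against het gave 0 to 13, the latter without homo replicate 1.

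Without the filter on low counts there were 477 calls in the whole node, 85 in the B gate, 54 for homo against het and 2 for B minus CD4. Fitting only the 4 homo and WT libraries gave 117 in the whole node. DESeq2 called 3 genes in the B gate, 62 in the CD8 gate, 2 in the CD4 gate and 2 for homo against het, and 224 in the whole node. The stricter gate gave 14 calls in the CD4 gate, 13 for CD8 minus CD4 and 2 for B minus CD4. Without het replicate 3, an alternative chosen after the data had been seen, 1 gene was called in the B gate. The cause of these shifts was not tested.

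The replicate numbers are shared by the groups. With 2 libraries in a group, their deviations from the group mean mirror each other. The correlation of deviations was -0.0934 for same-numbered WT and homo libraries and 0.0934 for the others. It therefore cannot show whether same-numbered libraries are paired. A fit with the replicate block gave 137 calls in the whole node (73 higher, 64 lower) and 4 in the B gate. Of the 51 named results, 408 values under alternatives were computed: 298 kept their direction and their side of the threshold, 109 kept the direction but missed it, and 1 reversed, that of Cd55 in the CD4 gate (-0.041 without homo replicate 2 and 1.62 without homo replicate 1). These values came from DESeq2, RLE scaling, the barcode filter and leaving out a homo or WT library or het replicate 3. RLE scaling and the barcode filter kept all 51. Left out of this count were the replicate block, the fit without the low-count filter, the fit of only the 4 libraries and the stricter gate. With the replicate block, 3 of the 10 falls named for the whole node were called. No difference in a share of barcodes reversed, nor did the median shares of change given by the mix. The B share differed by -33.1 points after thinning, -21.1 with filtered barcodes and -20.7 against TRB barcodes, and by -15.3 with the stricter gate, where the groups overlapped. Of the 4 homo and WT libraries, depth limits homo replicate 1 most, whose CD4 gate held 57317 UMIs.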

Other observations

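The spleen was profiled in 1 library of Y665F and 1 of WT, with no replicate, and the labels do not give the zygosity of that Y665F mouse or tie it to a lymph node library. Its values are therefore a description of 2 libraries. Of the 95 genes that rose in the homo lymph node, 84 (88.4%) had a higher level in the Y665F spleen, against 26.3% of all genes tested in the node. Of the 103 that fell, 85 (82.5%) had a lower level there, against 73.6% of all tested. The median log2 ratio of Y665F to WT in the spleen, with 1 CPM added to each level, was 0.66 for the first set, -0.66 for the second and -0.17 for all tested genes. Drc1 was at 1.29 CPM in the WT spleen and 30.5 CPM in the Y665F spleen, Cd163l1 at 2.12 and 16.1 CPM, and Ccr9 at 53.2 and 17.0 CPM. Ighg1, which fell in the node, was higher in the Y665F spleen, at 0.815 CPM in WT and 21.7 CPM in Y665F. Eomes, which rose in the node, was at 56.1 and 45.2 CPM in the spleens.

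The 2 largest rises in the whole node were left out of the named genes because they are predicted gene models. Gm4208 was at 0 CPM in both WT nodes and at 4.02 and 2.81 CPM in the homo nodes, and 4933440M02Rik at 0.149 and 0 CPM in WT and at 7.32 and 5.26 CPM in homo. They were singled out after their values had been seen.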
